A study of Mus musculus with 8 samples.

Results

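The extracellular matrix of the heart is cut, protected and crosslinked by a limited set of enzymes, and 54 of the 33249 genes measured here encode members of that set. They were chosen by gene symbol alone, as the matrix metalloproteinases (MMPs), the tissue inhibitors of metalloproteinases (TIMPs), the ADAMTS proteases, the ADAMTS-like proteins and the lysyl oxidases. By name the set held 21 MMPs, 19 ADAMTS proteases, 5 ADAMTS-like proteins, 4 TIMPs and 5 lysyl oxidases.

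MMPs are zinc-dependent enzymes that cleave collagens, elastin, fibronectin and other matrix proteins, and most are made as inactive precursors. TIMPs bind the active site of MMPs and of some ADAM and ADAMTS enzymes. ADAMTS proteases cut proteoglycans or remove the ends of procollagens, ADAMTS-like proteins resemble their non-catalytic part and bind the matrix, and lysyl oxidases oxidise lysine in collagen and elastin so that the fibres become crosslinked. After an infarct these proteins take part in the replacement of dead muscle by a collagen scar.

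RNA was sequenced from the myocardium of mice in 4 groups of 2 libraries each: the sham groups carry the labels fl/fl-Sham and CKO-Sham, and the infarct groups fl/fl-MI and CKO-MI. All mice carried floxed alleles of Piezo1, a mechanically gated cation channel. CKO mice also carried Myh6-MerCreMer, a Cre recombinase made in cardiomyocytes and fused to a tamoxifen-responsive oestrogen receptor domain, and the fl/fl mice were littermates without it; tamoxifen deletion is described by the study at 4 weeks of age. Myocardial infarction (MI) was made at 8 weeks of age by tying off the left anterior descending artery for good, sham mice had the same surgery but kept an intact artery, and MI hearts were taken on day 42. Nothing in the labels says which zone of the heart was sampled or whether hearts were pooled, and they do not state that the 2 libraries of a group came from separate animals, so p-values measure the spread between libraries. In bulk tissue, fewer cells of a type and less RNA per cell cannot be told apart.

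Total deposited counts ranged from 73821747 to 88117573 per library. Mitochondrially encoded genes took 43.1 to 46.4% of counts in sham and 19.9 to 24.2% in MI libraries. Levels are therefore given as normalised FPKM (fragments scaled to transcript length and library size, divided by the library's TMM factor), a per-length scale.

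Some libraries went against their labels in the Esr1 reads given below. Piezo1 RNA says less about a label, because the tissue held other cells besides cardiomyocytes. The study reports the loss of Piezo1 by western blot in isolated cardiomyocytes, which were not sequenced here. Piezo1 was not lower in the libraries labelled CKO (log2 fold change 0.03 ± 0.16 SE, adjusted p = 0.972 after MI, and 0.10 ± 0.16, adjusted p = 1 in sham). Reads assigned to Esr1, whose ligand-binding part is in the Cre fusion, gave 0.387 to 0.590 normalised FPKM in all 4 sham libraries and 0.549 in fl/fl-MI 1, but 23.4 in fl/fl-MI 2, 50.3 in CKO-MI 1 and 28.6 in CKO-MI 2. Both libraries labelled CKO-Sham and the library labelled fl/fl-MI 2 thus differed from what the genotype label implies. The library labelled fl/fl-MI 2 also stood apart in 5 atrial markers, whose summed normalised FPKM was 16622 there, 2844 to 4976 in the other MI libraries and 130 to 613 in sham. Bmp10, made mainly in atrial muscle, was at 824 normalised FPKM in that library and at 2.23 to 4.03 in the other 7. Cardiomyocyte markers were abundant in every library, with a summed normalised FPKM of 5024 to 6003 in sham and 2817 to 7001 in MI. Genotype words below mean the label only, and the comparisons between genotypes are given with and without fl/fl-MI 2 and single CKO-Sham libraries where these enter.

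Of the 54 members, 36 averaged 0.5 FPKM or more across the 8 libraries and were tested. Of these, 32 reached that level in sham and in MI alike, 3 passed through the MI libraries alone (Adamts4, Adamts8 and Loxl4) and 1 through the sham libraries alone (Mmp17). Mmp17 was the weakest to pass, at 0.539 FPKM, and Adamts12 the strongest below, at 0.461.

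The first comparison asked how the set differed between infarcted and sham-operated hearts, 4 libraries against 4, with the labelled genotype groups weighted equally. Esr1 reads were 0.387 to 0.590 normalised FPKM in sham, 0.549 in fl/fl-MI 1 and 23.4 to 50.3 in the other MI libraries. If these reads mark the Cre fusion, it was not balanced between MI and sham. Its part in the differences below was not tested. Timp1, Timp2, most lysyl oxidases and several proteases were higher after MI and Timp4 was lower: 16 of the 36 tested members rose and 4 fell, and 16 did not pass the test. Adamts4, counted among those that rose, and Mmp17, counted among those that fell, passed the filter only through the group where they were high; over the 32 members at that level in both groups 15 rose and 3 fell, with a median log2 fold change of 0.92. The median log2 fold change of the tested members was 0.97, beside 0.03 for all 14028 genes tested. At an adjusted p under 0.05 (edgeR's quasi-likelihood test, Benjamini-Hochberg over all genes), 55.6% of tested members were called, against a background of 40.4% of all genes. Called higher were 44.4% of tested members and 22% of all genes, and called lower were 11.1% of tested members and 18.3% of all genes. At an unadjusted p under 0.05 there were 25 members, beside 50.2% of all genes. With the genotype labels dropped from the fit, 19 members were called, beside 41.7% of all genes. With limma on log2(FPKM + 1), a scale on which the median of all genes was 0.41, 22 members were higher and 2 lower, beside 50.1% and 5.97% of all genes.

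In 14 tested members, Adamts4 among them, every MI library lay above every sham library (background 21.3% of all genes), and in 4 every MI library lay below (19.1%); the other 18 overlapped. By family, 2 of 4 TIMPs, 6 of 12 tested MMPs, 3 of 11 tested ADAMTS proteases, 1 of 4 tested ADAMTS-like proteins and 4 of 5 lysyl oxidases rose. The members that fell were Timp4, Adamts7, Mmp17 and Adamts10. The count was sensitive to single libraries. It was 9 without fl/fl-Sham 1 (25% of tested members, beside 25.3% of all genes), 6 without fl/fl-Sham 2 (16.7%, beside 23.1%), 5 without CKO-Sham 1 (13.9%, beside 23.7%) and 10 without CKO-Sham 2 (27.8%, beside 27.3%), so with any 1 sham library left out the share of members called was close to or below that of all genes. Leaving out an MI library gave 14 (without CKO-MI 2, beside 30.1% of all genes) to 26 (without fl/fl-MI 2, beside 50.7%). Timp1, Timp2, Timp4, Adamts2 and Adamts7 were the 5 members called in every one of the 8 fits that left a library out.

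**Figure D1:**
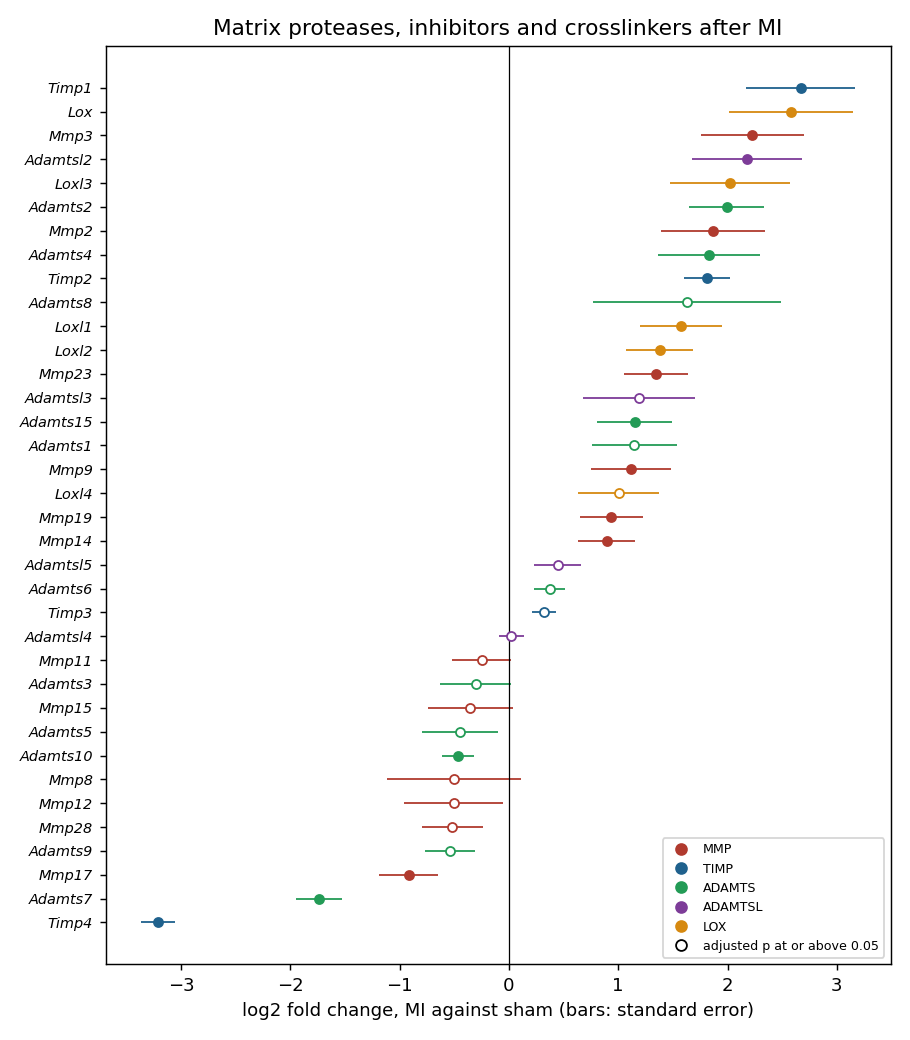
Log2 fold change of the 36 tested members, MI against sham, from edgeR, with the standard error as bar and family as colour; open circles did not reach an adjusted p under 0.05. Filled circles lie mostly on the right, from Mmp14 at 0.89 to Timp1 at 2.67, and the 4 members that fell range from Adamts10 at -0.47 to Timp4 at -3.21.

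The TIMPs moved in opposite directions. Timp4 (chromosome 6, 115241892 to 115252205, minus strand), the TIMP known for its high level in adult heart muscle, was at 25.8 and 26.1 normalised FPKM in fl/fl-Sham, 25.1 and 25.2 in CKO-Sham, 2.36 and 2.06 in fl/fl-MI, and 4.17 and 2.80 in CKO-MI. The sham libraries were nearly identical and every MI library was far below them. Its level fell by 3.21 on the log2 scale (SE 0.15, adjusted p = 0.000239), a level 9.25-fold higher in sham than in MI, and it had the lowest adjusted p of the members.

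Timp1 (chromosome X, 20870166 to 20874735, plus strand), an inducible inhibitor made by fibroblasts and inflammatory cells, was at 3.30 and 4.03 in fl/fl-Sham, 6.07 and 5.21 in CKO-Sham, 31.5 and 9.88 in fl/fl-MI, and 18.4 and 63.8 in CKO-MI normalised FPKM. All MI libraries were above all sham libraries, with a spread among MI libraries that no sham group showed. The log2 fold change was 2.67 ± 0.50 SE (adjusted p = 0.00641), or 6.36-fold.

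Timp2 (chromosome 11, 118301069 to 118355740, minus strand), which inhibits MMPs and also takes part in the activation of pro-Mmp2 by Mmp14, was at 21.2 and 23.8 in fl/fl-Sham, 19.0 and 22.8 in CKO-Sham, 122 and 64.7 in fl/fl-MI, and 56.2 and 69.7 in CKO-MI normalised FPKM. The MI libraries did not overlap sham, and the log2 fold change was 1.81 ± 0.21 SE (adjusted p = 0.00136). Timp3 (chromosome 10, 86300372 to 86349506, plus strand), the matrix-bound inhibitor and the most abundant TIMP in sham, ran from 61.2 to 69.8 normalised FPKM in sham and from 70.6 to 101 in MI. Although the groups did not overlap, its log2 fold change of 0.32 ± 0.11 SE missed the threshold (adjusted p = 0.0549).

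The make-up of the TIMP transcripts shifted accordingly. Timp4 made up 20.5 to 22.7% of summed TIMP FPKM in sham libraries and 0.923 to 2.79% in MI libraries. Timp2 went from 16.5 to 20.7% in sham to 33.5 to 47.5% in MI, and Timp1 from 2.88 to 5.27% to 6.03 to 30.6%. Summed TIMP level was 115 to 123 normalised FPKM in sham and 149 to 256 in MI. A share falls when other members of the sum rise, so the shares are read beside the levels given above. Timp1, Timp3 and Timp4 each lie inside a synapsin gene on the opposite strand; those genes averaged 0.557 (Syn1), 0.0789 (Syn3) and 1.19 FPKM (Syn2), against 21.5, 77.2 and 12.3 for the respective TIMP.

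**Figure D2:**
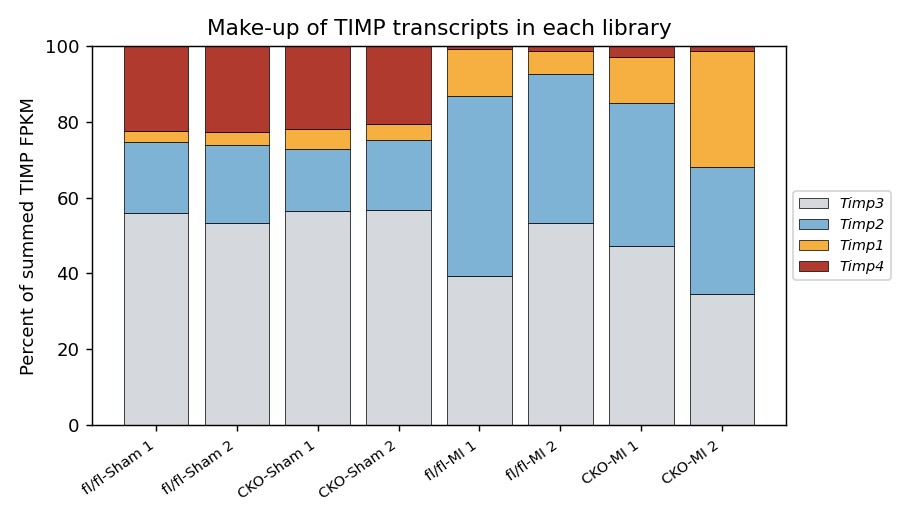
Percent of summed TIMP FPKM taken by each of the 4 TIMP genes in each of the 8 libraries. The Timp4 part is 20.5 to 22.7% in the 4 sham libraries and at most 2.79% in the MI libraries, where Timp2 and Timp1 take larger parts.

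Among the MMPs, the gelatinase Mmp2 (chromosome 8, 92827291 to 92853420, plus strand), which degrades denatured collagen and basement membrane, was the most abundant. It was at 20.4 and 22.5 normalised FPKM in fl/fl-Sham, 20.0 and 23.0 in CKO-Sham, 129 and 23.2 in fl/fl-MI, and 67.2 and 96.7 in CKO-MI. Of the MI libraries, fl/fl-MI 2 barely exceeded the highest sham library, while the other 3 were well above it. The log2 fold change was 1.87 ± 0.48 SE (adjusted p = 0.0202), and 2.25 ± 0.15 without fl/fl-MI 2. Mmp14 (chromosome 14, 54431612 to 54441265), the membrane-bound collagenase that activates pro-Mmp2, ran from 3.77 to 4.66 normalised FPKM in sham and from 5.33 to 12.1 in MI, a log2 fold change of 0.89 ± 0.26 SE (adjusted p = 0.0323). The calls for Mmp2 and Mmp14 each held in 3 of the 8 fits without a library. For Mmp2 the call was lost without each single sham library and without CKO-MI 2 (log2 fold change 1.71 in the latter).

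Mmp3, or stromelysin 1, which cleaves proteoglycans and activates other pro-MMPs, was at 3.90 and 4.68 normalised FPKM in fl/fl-Sham, 4.34 and 5.14 in CKO-Sham, 13.6 and 13.2 in fl/fl-MI, and 10.6 and 57.0 in CKO-MI. One library, CKO-MI 2, was far above the other MI libraries. Its log2 fold change was 2.23 ± 0.47 SE (adjusted p = 0.00994), and 1.38 ± 0.14 (adjusted p = 0.00348) without that library. Mmp9, a gelatinase carried by neutrophils and macrophages, was at 0.385 and 0.433 normalised FPKM in fl/fl-Sham, 0.777 and 1.001 in CKO-Sham, 0.705 and 2.11 in fl/fl-MI, and 1.02 and 1.48 in CKO-MI. Both CKO-Sham libraries were above fl/fl-MI 1, so the groups overlapped, with a log2 fold change of 1.11 ± 0.36 SE (adjusted p = 0.0457). That call held in 1 of the 8 fits without a library. Of the 3 neutrophil markers that could be tested, none was called.

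Mmp23 and Mmp19 also rose, with log2 fold changes of 1.35 ± 0.30 and 0.94 ± 0.29 SE. Mmp17, a membrane MMP, ran from 0.601 to 0.922 normalised FPKM in sham and from 0.253 to 0.512 in MI and fell by 0.92 on the log2 scale (SE 0.27, adjusted p = 0.0312). Mmp8, Mmp11, Mmp12, Mmp15 and Mmp28 did not pass the test. Mmp12, the macrophage elastase, was at 0.603 and 0.462 in fl/fl-Sham, 1.27 and 1.10 in CKO-Sham, 1.55 and 0.414 in fl/fl-MI, and 0.467 and 0.180 in CKO-MI normalised FPKM, with no order of sham and MI.

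Of the MMP genes analysed here, 8 lie in a cluster on chromosome 9 between 7272514 and 7699585 (GRCm38), in the order Mmp13, Mmp12, Mmp3, Mmp10, Mmp8, Mmp27, Mmp20 and Mmp7, all on the plus strand. In this heart tissue the cluster's genes differed widely in level: Mmp3 averaged 16.7 FPKM, Mmp8 and Mmp12 0.764 and 0.761, Mmp13 0.376, and Mmp20 0.00180. Of the 3 that passed the filter, Mmp3 rose and the others were not called. AP-1, the Fos and Jun family of transcription factors, is known to act on promoters of this cluster, and the RefSeq promoter windows (250 bases before to 50 after the start, GRCm38.p6) were searched for its motif TGANTCA, which reads the same on both strands. Windows were found for 35 of the 54 members, 38 windows in all, and 21 of the members with a window were tested. The motif stood in 6 of the 38 windows, each of a different member, beside 7.81% of all 32851 windows. Only 2 of these 6 members were tested. These 6 are all in the cluster. The sites are shown because they stand near the start of genes whose levels differ so much, with the motif in capitals and 10 bases on each side in lower case, 5′ to 3′ on the plus strand.
Mmp13, 35 bases upstream: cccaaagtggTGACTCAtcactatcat
Mmp12, 44 bases upstream: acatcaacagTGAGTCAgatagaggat
Mmp3, 46 bases upstream: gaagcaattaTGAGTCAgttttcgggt
Mmp10, 63 bases upstream: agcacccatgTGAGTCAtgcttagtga
Mmp20, 95 bases upstream: atttgagacaTGAATCAtcacttacag
Mmp7, 63 bases upstream: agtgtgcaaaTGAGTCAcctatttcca
The Mmp3 stretch is chr9:7445766-7445792 and the Mmp12 stretch chr9:7347320-7347346, the latter upstream of a RefSeq start that lies inside the gene as the deposited table gives it. The same 7 letters TGAGTCA stand before Mmp3, which averaged 16.7 FPKM, and before Mmp10, which averaged 0.0157 FPKM. A match in a window is a description of letters and not a measured binding site.

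Among the ADAMTS proteases, 3 rose and 2 fell. Adamts2, the procollagen N-proteinase that removes the amino end of type I procollagen, was at 3.08 and 3.20 normalised FPKM in fl/fl-Sham, 3.02 and 3.41 in CKO-Sham, 19.5 and 6.74 in fl/fl-MI, and 8.92 and 15.8 in CKO-MI. The groups did not overlap, and the log2 fold change was 1.99 ± 0.34 SE (adjusted p = 0.00497). Adamts15, a proteoglycanase, rose by 1.15 ± 0.34 SE on the log2 scale.

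Adamts4, an aggrecan- and versican-cleaving protease, ran from 0.284 to 0.545 normalised FPKM in sham and from 0.607 to 2.98 in MI, with a log2 fold change of 1.83 ± 0.47 SE (adjusted p = 0.0200); it passed the filter through the MI libraries alone. Its value is uncertain: 16 of the 36 tested members, Adamts4 among them, overlap another gene of the table, and the way reads were counted by strand is not given in the sources used here. The transcript table split Adamts4 in an uneven way too. A transcript of 4389 bases took 98.4 to 100% of Adamts4 FPKM in the sham libraries and fl/fl-MI 2, and one of 4386 bases took 80.3 to 91.6% in the other 3 MI libraries.

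Adamts7 (chromosome 9, 90163069 to 90208071, plus strand), a protease known to cleave cartilage oligomeric matrix protein and thrombospondins in vessels, was at 6.76 and 7.27 normalised FPKM in fl/fl-Sham, 5.13 and 5.92 in CKO-Sham, 1.35 and 2.61 in fl/fl-MI, and 1.89 and 1.66 in CKO-MI. All MI libraries were below all sham libraries. Its level fell by 1.74 on the log2 scale (SE 0.21, adjusted p = 0.00144). Adamts7 overlaps Tbc1d2b on the opposite strand, which averaged 98.9% of the Adamts7 level. The part of that overlap in the Adamts7 values was not tested. Comp, which encodes that cartilage protein, ran from 3.09 to 9.92 normalised FPKM in sham and from 20.2 to 277 in MI, and rose by 4.99 ± 0.83 SE on the log2 scale (adjusted p = 0.00443). Adamts10, which binds fibrillin, ran from 10.3 to 11.9 in sham and from 6.56 to 9.65 in MI normalised FPKM; it fell by 0.47 on the log2 scale (SE 0.14, adjusted p = 0.0372), but with log2(FPKM + 1), which carries no correction for the mitochondrial share, the value was 0.08 in the opposite direction.

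Adamts1, Adamts3, Adamts5, Adamts6, Adamts8 and Adamts9 did not pass the test. Of the ADAMTS-like proteins, Adamtsl2, which binds fibrillin and latent TGF-beta binding protein, was the one that rose, from 1.63 to 4.03 normalised FPKM in sham to 5.50 to 26.4 in MI, with a log2 fold change of 2.18 ± 0.50 SE (adjusted p = 0.0140). Adamtsl3, Adamtsl4 and Adamtsl5 had log2 fold changes of 1.19, 0.02 and 0.45.

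Of the lysyl oxidases, 4 of 5 rose. Lox, the founding member of the family, was at 5.29 and 4.55 normalised FPKM in fl/fl-Sham, 4.01 and 4.66 in CKO-Sham, 42.4 and 6.41 in fl/fl-MI, and 19.8 and 43.7 in CKO-MI. The sham libraries were alike, 3 MI libraries were several times higher, and fl/fl-MI 2 was just above sham. The log2 fold change was 2.58 ± 0.57 SE (adjusted p = 0.0116), or 5.98-fold, and 2.98 ± 0.26 without fl/fl-MI 2. The call for Lox held in 5 of the 8 fits without a library. It was lost without fl/fl-Sham 1, fl/fl-Sham 2 or CKO-Sham 1.

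Loxl1, needed for elastic fibre upkeep, was the most abundant of the family, at 12.3 to 14.9 normalised FPKM in sham and 17.9 to 61.0 in MI, with a log2 fold change of 1.57 ± 0.38 SE. Loxl2, which crosslinks collagen IV and fibrillar collagen, ran from 2.94 to 4.16 in sham and from 4.81 to 12.4 in MI normalised FPKM (log2 fold change 1.38 ± 0.31 SE, adjusted p = 0.0122). Loxl3 was at 2.49 to 3.51 in sham, and in MI at 18.1, 2.91, 9.60 and 21.2, so that the library labelled fl/fl-MI 2 lay inside the sham range; its log2 fold change was 2.02 ± 0.55 SE (adjusted p = 0.0244). Loxl3 overlaps Htra2 on the opposite strand, which averaged 60.2% of the Loxl3 level. Loxl4, the least abundant, did not pass the test (1.01 ± 0.37 SE, adjusted p = 0.0666). The calls for Loxl1 and Loxl3 each held in 3 of the 8 fits without a library, and that for Loxl2 in 6.

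**Figure D3:**
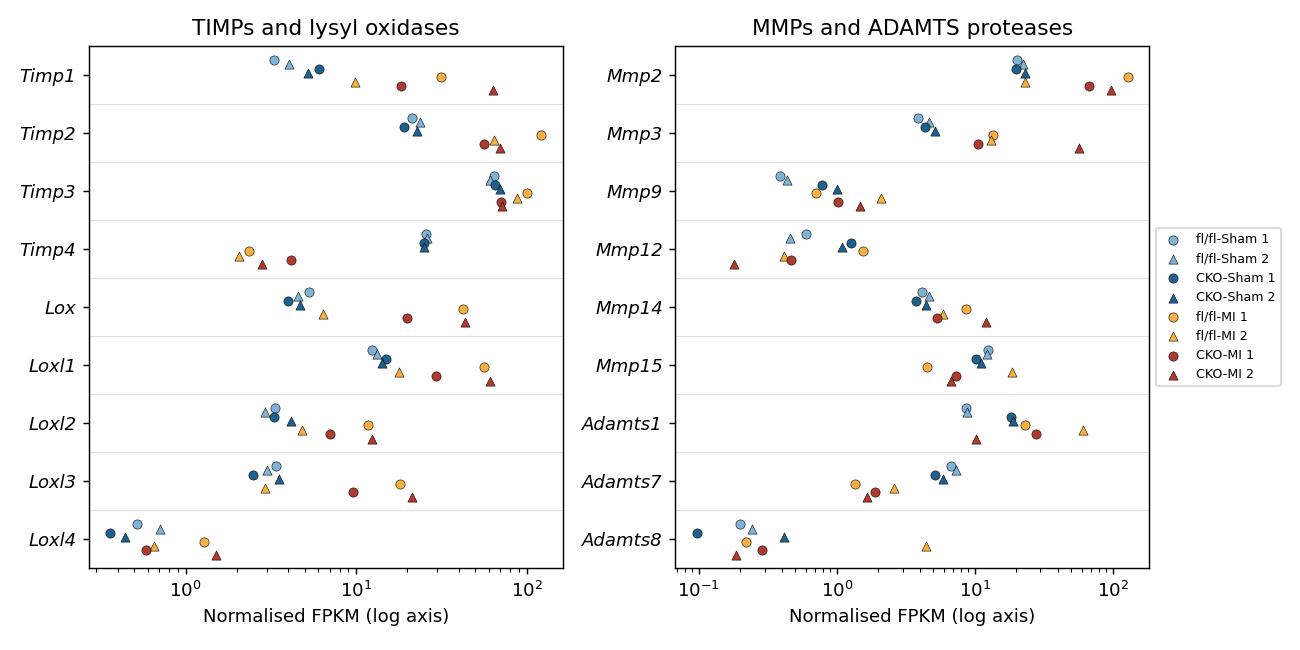
Normalised FPKM (log axis) in each of the 8 libraries for TIMPs and lysyl oxidases (left) and selected MMP and ADAMTS genes (right), with colour for the labelled group and circle or triangle for replicate 1 or 2. The library labelled fl/fl-MI 2 is the lowest MI library for Lox, Loxl1, Loxl2, Loxl3 and Mmp2 and the highest for Adamts1, Adamts8 and Mmp15.

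The 4 MI libraries differed among themselves. In 9 of the 16 members that rose, fl/fl-MI 2 gave the lowest MI value, as it did for 38.1% of all genes called higher, and in 10 of the 16 CKO-MI 2 gave the highest, as it did for 20% of those genes. Over the 36 tested members fl/fl-MI 2 was the lowest MI library in 14 and the highest in 8, beside 35.3% and 32.7% of all genes. As a ratio to the median of the other 3 MI libraries, fl/fl-MI 2 stood at 0.151 for Lox, 0.161 for Loxl3, 0.240 for Mmp2 and 0.314 for Timp1. It stood at 20.1 for Adamts8, 2.76 for Mmp15 and 2.63 for Adamts1.

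Adamts8, a proteoglycanase abundant in lung and heart, was at 4.46 normalised FPKM in fl/fl-MI 2 and at 0.0971 to 0.417 in the other 7 libraries. Mmp15, a membrane-bound MMP, was at 18.7 in fl/fl-MI 2, at 4.48 to 7.37 in the other MI libraries and at 10.3 to 12.4 in sham, in normalised FPKM. Without fl/fl-MI 2, Mmp15 fell by 1.04 on the log2 scale (SE 0.09, adjusted p = 0.000168), a call that the fit with all libraries did not give (adjusted p = 0.496). Adamts8 then had a log2 fold change of -0.07, in place of 1.63 with all libraries. These high values stand in the library with the high atrial markers, and the part of those markers in them was not tested.

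**Figure D4:**
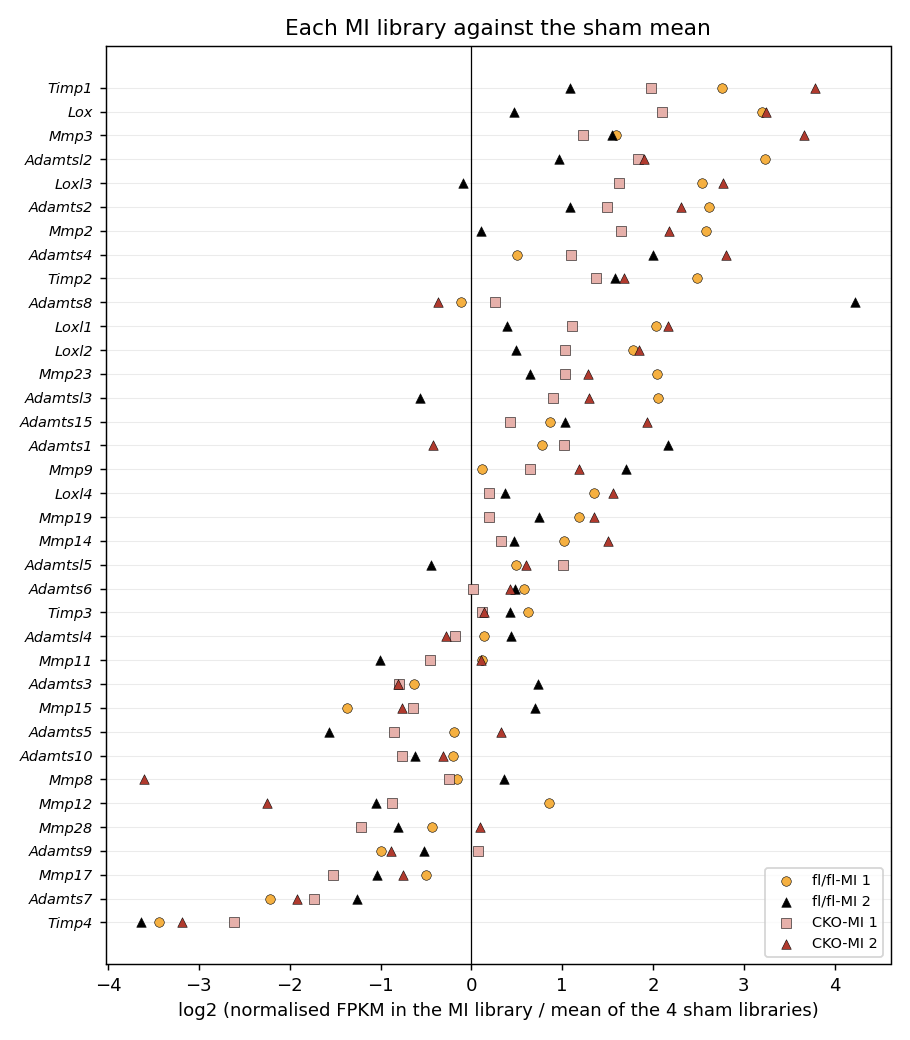
Log2 ratio of each MI library's normalised FPKM to the mean of the 4 sham libraries, for the 36 tested members in the order of their log2 fold change. Black triangles, the library labelled fl/fl-MI 2, lie left of the other symbols for Lox, Loxl3, Mmp2 and Adamtsl3 and right of them for Adamts8, Mmp15 and Adamts1.

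Genes of neighbouring steps were read beside the 22% of all genes called higher and 18.3% called lower. Of the substrates, 6 of 7 tested rose, among them Col1a1 (log2 fold change 1.70 ± 0.38 SE), Col3a1 (2.27 ± 0.47) and Fn1 (1.69 ± 0.33), while Eln missed the threshold (0.92 ± 0.39, adjusted p = 0.0991). In the plasminogen system, which activates pro-MMPs, the protease inhibitor Serpine2 rose by 1.21 ± 0.29 SE on the log2 scale. The activators Plat and Plau had log2 fold changes of 0.79 and 0.35 and were not called. Of the collagen hydroxylases and transglutaminases 5 of 8 rose, among them P4ha3 (2.66 ± 0.52 SE) and Tgm2 (0.77 ± 0.10), and of the procollagen processing genes 2 of 4, Pcolce and Pcolce2. Among the ADAM sheddases, 3 of 6 rose and Adam15 fell by 0.74 on the log2 scale. Among genes that bind or regulate MMPs, 4 of 7 rose, with Thbs1 at 2.71 ± 0.30 SE and the membrane-anchored inhibitor Reck at 1.12 ± 0.25, and Bsg, the MMP inducer CD147, fell by 0.65.

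Markers of several cell types also differed between sham and MI. Of 8 fibroblast markers 6 rose, and their summed normalised FPKM was 238 to 259 in sham, 777 and 403 in fl/fl-MI, and 418 and 588 in CKO-MI; Col1a1 and Postn, themselves scar genes, are among them. Of 6 endothelial markers 5 fell, with sums of 299.7 to 329.9 in sham and 98.7 to 150.2 in MI. Macrophage markers summed to 75.2 to 99.0 in sham and 64.4 to 154 in MI, with 2 of 6 called higher, and 1 of 5 smooth muscle markers fell. Of the cardiomyocyte markers, 3 of 8 rose and 2 fell. Neutrophil, mast cell and lymphocyte lists had no called gene among 3, 3 and 2 tested. Of the epicardial markers 2 of 4 rose, of the cartilage-like markers 1 of 3, and of the atrial markers 1 of 5, Nppa. No marker was at 0 in every library. The part of these cell types in the results for the set was not tested.

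Within each labelled genotype, with 2 libraries against 2, fewer members passed. High Esr1 reads stood in both CKO-MI libraries and in fl/fl-MI 2 but in no sham library, so neither comparison was balanced for them. In fl/fl-MI against fl/fl-Sham, 6 tested members rose and 2 fell, beside 10.1% and 8.45% of all genes, or 18.5% in either direction; 17 had an unadjusted p under 0.05, beside 36.3%. In CKO-MI against CKO-Sham, 6 rose and 2 fell, beside 12.8% and 11.9% of all genes, or 24.7%; 20 had an unadjusted p under 0.05, beside 39.9%. DESeq2 called 18 and 19 members in these comparisons, beside 28.8% and 33.7% of all genes. Timp4 fell in both, by 3.55 ± 0.22 SE in fl/fl and by 2.86 ± 0.21 in CKO on the log2 scale, and Adamts7 fell in both, by 1.82 and 1.65. Timp1 (2.49 and 2.85), Timp2 (2.04 and 1.58) and Adamts2 (2.06 and 1.93) rose in both. Mmp23, Adamts1 and Timp3 rose in the fl/fl comparison, with log2 fold changes of 1.77, 2.29 and 0.58, and Lox, Mmp3 and Adamts4 in the CKO comparison, with 2.86, 2.82 and 2.51. Passing in one comparison and not in the other does not show a difference, and the test of the difference is given below. The counts rested on single libraries. The count of the CKO comparison rose when either fl/fl-MI library was left out, and not for fl/fl-MI 2 alone. In fl/fl-MI against fl/fl-Sham, 16 were called without fl/fl-MI 2 (29.5% of all genes), 1 without fl/fl-Sham 1 (0.898%) and 1 without fl/fl-Sham 2 (0.848%). In the CKO comparison, 23 were called without fl/fl-MI 2 (41.3%), which enters through the estimate of spread that all groups share, 1 without CKO-Sham 1 (0.178%) and 1 without CKO-Sham 2 (5.09%).

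The study's main question was what the Piezo1 deletion changes after MI. In CKO-MI against fl/fl-MI no member was called, where 0% of all genes were (edgeR), and DESeq2 called no member either and 1.48% of all genes. At an unadjusted p under 0.05 there were 5 members, 1 higher and 4 lower, beside 8.31% of all genes. These were Timp4 (log2 fold change 0.65 ± 0.20 SE), Adamtsl4 (-0.53 ± 0.17), Adamts8 (-3.30 ± 1.27), Timp3 (-0.40 ± 0.16) and Mmp12 (-1.61 ± 0.66), and their adjusted p was 0.549 or higher. For Timp4 the CKO-MI libraries (4.17 and 2.80 normalised FPKM) lay above the fl/fl-MI libraries (2.36 and 2.06), with all of them far below sham. A p above the threshold does not show that the genotypes were alike: for Mmp2 the difference was 0.10 ± 0.65 SE and for Lox 0.38 ± 0.76.

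The outcome turned on which fl/fl-MI library was kept. Without fl/fl-MI 1, 9 members were called (25% of tested members, beside 11.9% of all genes), 5 higher in CKO-MI (Lox, Loxl3, Mmp2, Adamtsl3 and Adamtsl5) and 4 lower (Adamts3, Adamts8, Adamtsl4 and Mmp15). Without fl/fl-MI 2, the library whose Esr1 reads go against its label, none was called, beside 0.192% of all genes. Of the members called without fl/fl-MI 1, Lox, Loxl3, Mmp2, Adamtsl3, Adamts8 and Mmp15 had the opposite sign without fl/fl-MI 2. Adamts3, Adamtsl4 and Adamtsl5 kept their sign. Mmp2 had a log2 fold change of 1.83 ± 0.24 SE without fl/fl-MI 1 and -0.66 ± 0.22 without fl/fl-MI 2. For Lox these values were 2.31 ± 0.44 and -0.42 ± 0.39, and for Mmp15 -1.40 ± 0.13 and 0.66 ± 0.14. In these fits 1 library stands for the fl/fl-MI group and is assumed to vary as the other groups do.

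**Figure D5:**
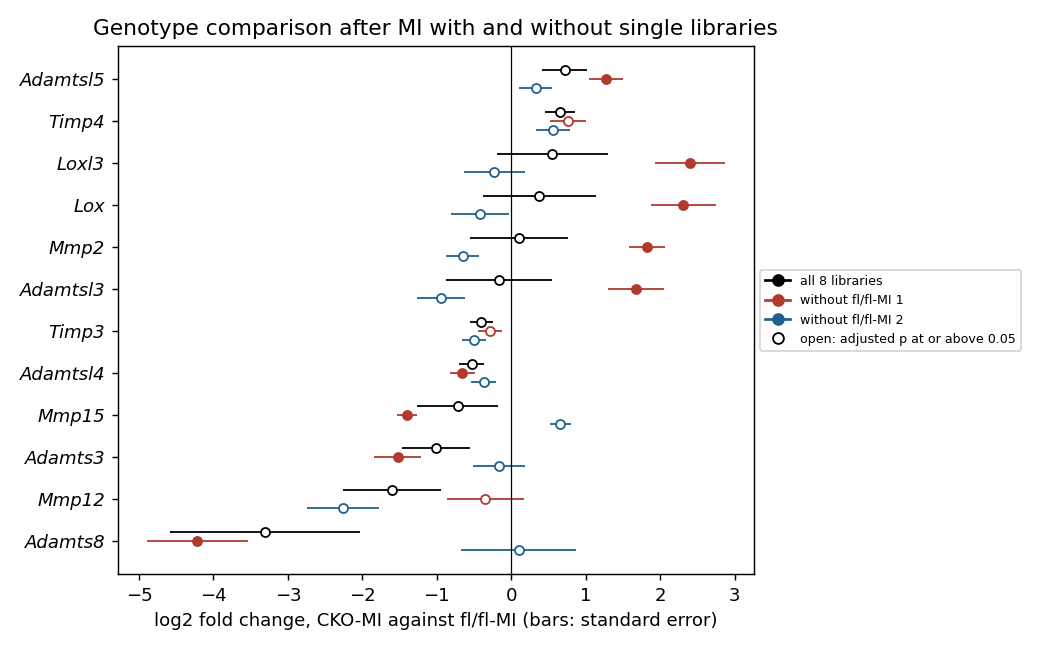
Log2 fold change between CKO-MI and fl/fl-MI (positive is higher in CKO-MI) with standard errors for 12 members, fitted with all libraries (black), without fl/fl-MI 1 (red) and without fl/fl-MI 2 (blue); filled circles reached an adjusted p under 0.05. The members shown are those called without fl/fl-MI 1, together with the 5 of smallest p in the fit with all libraries. The filled red circles thus follow from that choice. Red and blue lie on opposite sides of 0 for Lox, Loxl3, Mmp2, Adamtsl3, Adamts8 and Mmp15.

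The same comparison was made in sham hearts. In CKO-Sham against fl/fl-Sham no member was called (0.00713% of all genes), none had an unadjusted p under 0.05 (3.89% of all genes), and DESeq2 called none (0.242% of all genes). None was called with either CKO-Sham library left out. The members with the smallest p were Mmp9 (log2 fold change 1.10 ± 0.52 SE), Adamts1 (1.11 ± 0.55), Mmp12 (1.15 ± 0.65), Mmp23 (0.50 ± 0.42) and Adamts7 (-0.34 ± 0.29), all with an adjusted p of 1. Adamts1, a versican-cleaving protease, was at 8.61 and 8.73 normalised FPKM in fl/fl-Sham and at 18.2 and 19.1 in CKO-Sham, a clear gap between pairs that agree closely. When only these 4 libraries were fitted, a setting added after the data were seen, it was called (1.11 ± 0.08 SE, adjusted p = 0.00394, against 0.495 to 1 in the planned settings) and was the 1 member so called, beside 1.18% of all genes. In MI, Adamts1 was at 23.3 and 61.3 in fl/fl-MI and 27.8 and 10.2 in CKO-MI normalised FPKM.

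For the interaction, which asks whether the MI change differs between labelled genotypes, no member was called, where 0% of all genes were (edgeR); DESeq2 called no member and 0.952% of all genes. At an unadjusted p under 0.05 there were 3 members, beside 8.49% of all genes: Mmp12 (-2.76 ± 0.93 SE), Adamts1 (-2.27 ± 0.77) and Timp4 (0.69 ± 0.28), with an adjusted p of 0.574 or higher. For Timp4 a positive value means a smaller fall in CKO. Without fl/fl-MI 2 no member was called, beside 0.0356% of all genes, and likewise none without either single CKO-Sham library. Without fl/fl-MI 1, a fit that keeps the library whose Esr1 goes against its label, 5 members were called (Adamts1, Adamts8, Lox, Mmp15 and Mmp2), beside 5.35% of all genes.

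The transcript table added little on isoforms. Of the 36 tested members, 28 had the same leading transcript in every library, which includes the 4 with a single transcript. The leading transcript differed between libraries in 8: Adamts3, Adamts4, Adamts7, Adamts8, Adamts10, Adamtsl4, Adamtsl5 and Timp1. A transcript of 883 bases took 45.7 to 84.2% of Timp1 FPKM across libraries. For Adamts7, a transcript of 5379 bases took 12.1 to 66.1%. The split between near-identical transcripts is an estimate, and no test was made on it. The 18 members below the filter had normalised FPKM of 0 to 0.707 in any library; none was at 0 in all 8. Adamts19, at 0.446 normalised FPKM in fl/fl-MI 2 and 0.0274 to 0.224 elsewhere, was the one among them with the widest gap of that library. The collagenase Mmp13 ran from 0.304 to 0.608 in sham and from 0.0592 to 0.493 in MI, so that neither of the secreted collagenases measured, Mmp8 and Mmp13, averaged as much as 1 FPKM.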

How the data were processed

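The authors extracted total RNA with TRIzol from mouse myocardium, marked strand with dUTP, and per the labels used FastQC and cutadapt 1.9. The aligner, counter, annotation and genome build are not given in the sources used here. All 54 member identifiers were in GENCODE M21 (GRCm38), 47 with the same coordinates, so positions are given on GRCm38. The deposited counts are whole numbers per gene and library, not normalised by the authors, that fall at about 4 per read pair. The deposited FPKM were scaled by the authors to length and library size. Normalised FPKM is that value divided by the library's TMM factor.

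Members, family groups, gene lists and the rule for named genes were chosen with earlier results of these data known. Named were the TIMPs, the lysyl oxidases, Mmp2, Mmp3, Mmp9, Mmp12, Mmp13 and Mmp14, the 8 largest called changes after MI in each direction, and the 5 members with the smallest p in each genotype comparison; other members named, Esr1, Bmp10 and overlapping genes were chosen after their values were seen. The planned likeness of members to Timp1 and Lox across libraries is not given, because sham and MI libraries form separate clusters. The 14028 genes averaging 0.5 FPKM or more were tested with edgeR 4.0.16 (R 4.3.3), using TMM and quasi-likelihood F tests on 4 group means, with Benjamini-Hochberg adjustment and calls at an adjusted p under 0.05. On simulated counts for MI against sham over 14028 genes, 48 of 100 genes changed 2-fold and 94 of 100 changed 4-fold were recovered, with 11 false calls. Only these genes were changed there, with no genotype difference and no outlying library. In the data 40.4% of all genes were called, so these rates do not carry over to it. DESeq2 1.42.0 and limma 3.58.1 on log2(FPKM + 1) and log2(FPKM + 0.1) were alternatives. Promoter windows came from RefSeq. A few results on genes outside the set are not reported here.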

Additional observations from a re-analysis of the deposited data

Results flagged for a closer look

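Adamtsl4, an ADAMTS-like protein that binds fibrillin microfibrils, was picked out because both fl/fl-MI libraries (11.6 and 14.2 normalised FPKM) lay above both fl/fl-Sham libraries (9.80 and 11.1) while both CKO-MI libraries (9.31 and 8.64) lay below both CKO-Sham libraries (9.58 and 11.6). The interaction on the log2 scale was -0.55 (SE 0.24). It did not pass the test, with an adjusted p of 0.592 by edgeR's quasi-likelihood test over all genes.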

How the results depend on the processing

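The number of members called in MI against sham (20) ranged from 5 (without CKO-Sham 1; 13.9% of tested members, 23.7% of all genes) to 26 (without fl/fl-MI 2; 72.2% and 50.7%) when single libraries were left out. The median log2 fold change of tested members (0.97) was 0.45 without the filter on low values, 1.32 at a mean FPKM of at least 5, 1.37 with limma on log2(FPKM + 0.1), and 0.58 to 1.12 without single libraries. In fl/fl-MI against fl/fl-Sham (8 called), no filter gave 14, DESeq2 18, limma 14 with log2(FPKM + 1) and 16 with log2(FPKM + 0.1), an unadjusted p under 0.05 with a 2-fold change 16, and single libraries left out 1 to 16. In CKO-MI against CKO-Sham (8 called) the same settings gave 15, 19, 16, 18 and 18, and 1 to 23. An unadjusted p under 0.05 with a 2-fold change gave 2 members between the MI genotypes and 2 in the interaction, where single libraries left out gave 0 to 9 and 0 to 5. With only the 4 sham libraries fitted, also added later, 1 member was called between genotypes. Directions turned in MI against sham for Adamts10 (log2 fold change 0.0788 and 0.0832 with limma at offsets of 1 and 0.1) and Mmp12 (0.0138 at 1), and for Adamts8 between the MI genotypes, which ranged from -4.22 to 0.10 without single libraries; under limma the median of all genes moved to 0.41 and 0.56, from 0.03. Replicate numbers are shared between groups, but same-numbered libraries did not deviate together (correlations of -0.21 to 0.06), so they were not treated as pairs. With the replicate block 17 members were called in MI against sham, beside 36.25% of all genes. In the fl/fl comparison of MI with sham it gave 3, where the share of all genes is not given. Between the MI genotypes it gave 0, beside 0% of all genes. The crossed pairing, added after the data were seen, also gave 0 between the MI genotypes. The cause of these differences was not tested.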
